A study of Homo sapiens with 15 samples.

Results

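MRFAP1L1, GPM6B, NEBL, ITGBL1 and SELENBP1 are 5 genes whose level was far lower in malignant T4 breast cells than in nonmalignant S1 cells, and they were chosen by that difference in these values, T4 minus S1 on the log2 scale. They are read through the probe sets that the platform annotations assign to one of these genes and to no other, 13 of 19707 such probe sets, and the genes are 5 of the 9111 tested. The series measured total RNA of 15 samples of the HMT3522 human breast epithelial lines with Affymetrix U133A-type arrays, all from cultures in a 3-dimensional matrix rich in laminin. The T4R group holds 9 samples of HMT3522 T4 cells that the submitters call reverted, each with another agent. These agents were GM6001 (a metalloproteinase inhibitor), an inhibitor of metalloproteinases and ADAM proteases, PD98059 (against MAPK signalling), LY294002 (against PI3K), AIIB2 (against β1-integrin), Tyrphostin AG 1478 and mAb225 (which block EGFR), dominant-negative Rap1 and TNF protease inhibitor-2. The T4 group holds 3 samples of HMT3522 T4, and the S1 group 3 samples of HMT3522 S1. Each group is 1 cell line, each agent has 1 sample, and its dose and time are not given here. The series' design text speaks of a vehicle control but does not say which samples received it. The question these genes pose is how far each agent brings them back toward S1, and whether their values lie near the low end of the arrays.

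As background, the 5 genes belong to different families. MRFAP1L1 is a relative of MRFAP1, a protein that binds the chromatin protein MRG15, which sits in the TIP60 histone acetyltransferase complex. GPM6B is a membrane glycoprotein of the myelin proteolipid family, which spans the membrane several times and is best known from brain. NEBL encodes nebulette, an actin filament binding protein of the nebulin family in heart muscle, and the same locus gives a shorter form with a LIM domain in other cells. ITGBL1 is a secreted protein with EGF-like repeats similar to those of integrin β subunits, and it lacks the part that would cross a membrane. SELENBP1 binds selenium, works as a methanethiol oxidase and is often low in carcinomas.

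The samples were first set against their labels and against each other. Of 8 breast epithelial markers 7 had a usable probe set, and their median lay above 84.9% to 95.4% of the probe sets of the same array in T4R, 88.2% to 91.6% in T4 and 93.3% to 94.3% in S1. KRT5 and KRT14, keratins of the basal layer, stood above 99.4% or more of every array, and KRT19 lay below the lower quartile of all 15. The medians of the other marker lists lay at 35.8% to 50.1% in T4R, 36.2% to 39.7% in T4 and 27.4% to 37.0% in S1 for 6 fibroblast markers, at 9.26% to 34.2% in T4R, 13.2% to 19.3% in T4 and 10.9% to 18.7% in S1 for 3 endothelial markers, and at 15.0% to 45.5% in T4R, 11.98% to 16.7% in T4 and 24.3% to 37.9% in S1 for 3 leukocyte markers. Members of a list differed widely. COL1A1 ran from 43.1% to 95.1% of the array and DCN from 45.2% to 87.1% in the fibroblast list, and CD14 from 2.29% to 77.4% in the leukocyte list. LUM of the fibroblast list and CDH5 of the endothelial list were below the lower quartile throughout. These lists differed between samples, and their part in the results below was not tested. A sample of each line stood apart. T4 sample 3 differed by at least 2-fold from T4 samples 1 and 2 in 356 and 426 genes, whereas samples 1 and 2 differed in 6. S1 sample 3 differed from S1 samples 1 and 2 in 553 and 648 genes, against 16 between samples 1 and 2, and it is the single S1 sample in the second of the 2 deposited value tables. The first table holds S1 samples 1 and 2, all T4 samples and the agents LY294002, GM6001 and the MMP and ADAM inhibitor, and the second holds the other 6 agents. Differences and standard errors (SE) are log2 values from a limma fit over all samples with the table as a block, and a call is an adjusted p below 0.05.

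The 5 genes split into a pair at the low end of the arrays and a group of 3 above it. Of these 3, SELENBP1 lay not far above the low end in T4, at 7.02 to 7.08, where the lower quartiles of the arrays were 6.87 to 6.91. In T4 sample 3 ITGBL1, at 6.93, and NEBL, at 7.12, also lay not far above it. MRFAP1L1 and GPM6B differed between T4R and T4 by less than the spread of the samples, and no agent moved the probe sets that represent them by more than 5% of the distance to S1. For NEBL, ITGBL1 and SELENBP1 the fitted T4R minus T4 difference was 0.57 to 0.89 log2 units, which is 17.8% to 24.5% of the distance to S1, and it passed the test in ITGBL1 alone. Without S1 sample 3 the share was 4.39% for SELENBP1, 15.7% for NEBL and 18.5% for ITGBL1. The genes were grouped as lost and not restored. The values of MRFAP1L1 and GPM6B go with that label, and those of ITGBL1 go against it in part. In the T4R samples all 5 were below every S1 sample. These are bulk RNA samples, in which fewer cells that express a gene and less of its RNA per cell cannot be told apart.

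**Figure D1:**
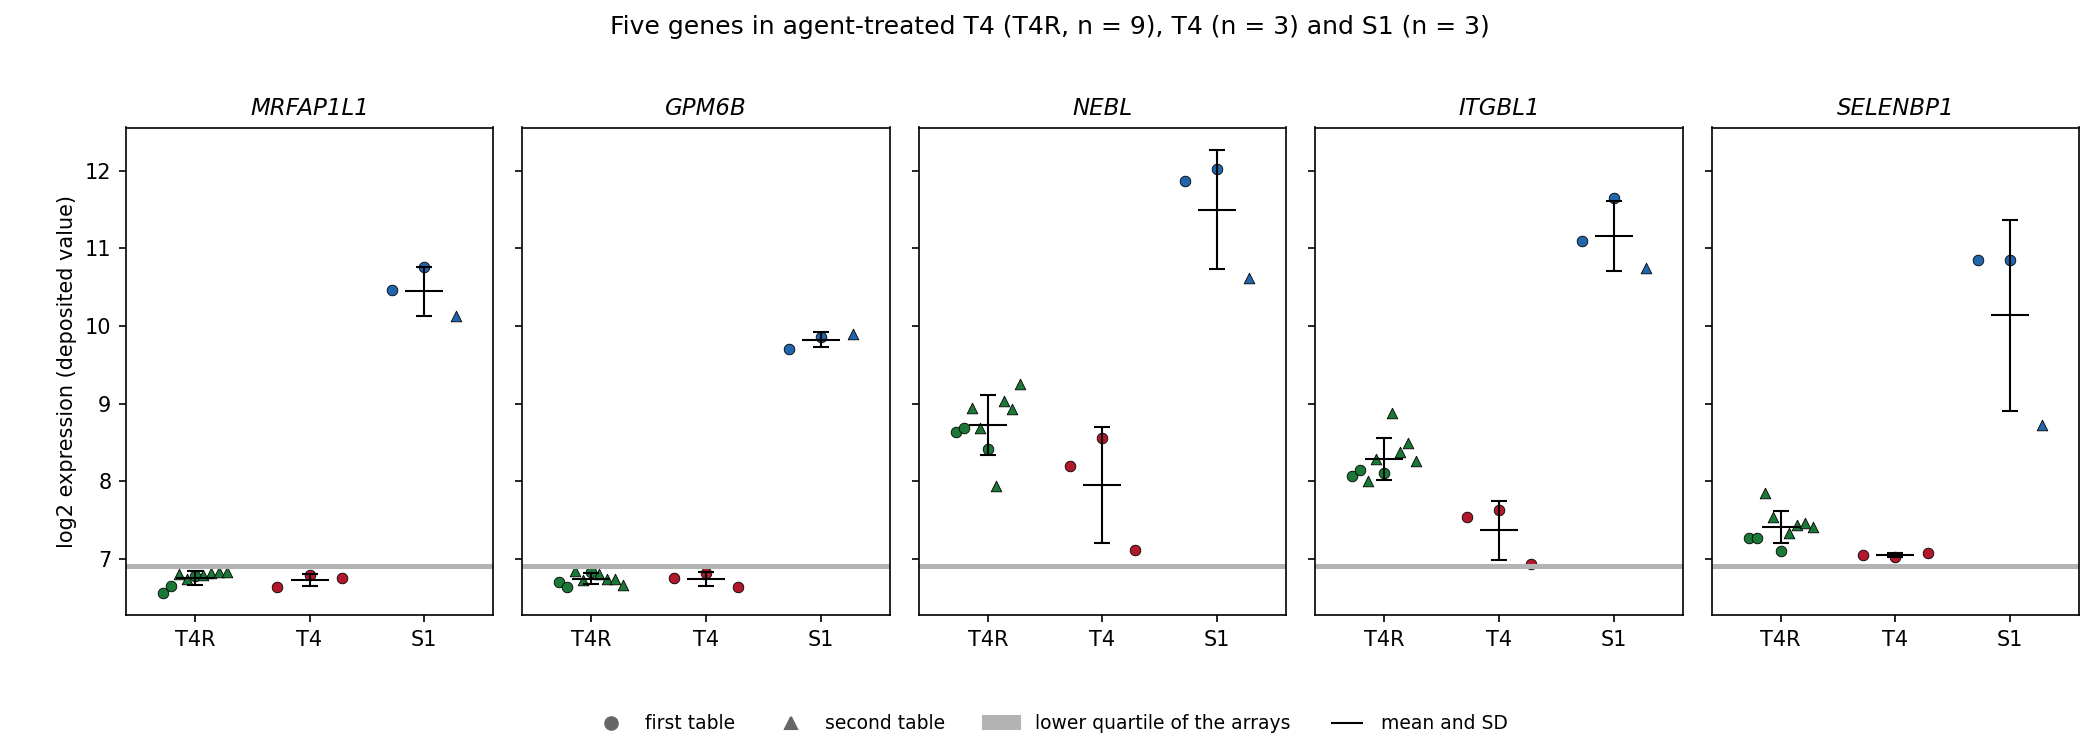
Deposited log2 level of the probe set that represents each gene, 1 point per sample, with T4R left of T4 and T4 left of S1; circles are samples of the first table and triangles of the second, bars are the mean and SD, and the grey band spans the lower quartiles of the arrays (6.87 to 6.91). MRFAP1L1 and GPM6B stay under that band in all T4R and T4 samples, and no T4R or T4 point of any gene reaches an S1 point.

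The start regions of the genes are shown because the 5 genes were lower together in T4. RefSeq (GRCh38.p14) holds 9 promoter windows, from 250 bases before to 50 after a transcription start, for 4 of the 5 genes, namely 1 for MRFAP1L1, 2 for GPM6B, 5 for NEBL and 1 for ITGBL1. SELENBP1 is named only. Each sequence is written 5′ to 3′ on the gene's strand, and capitals mark CG dinucleotides, the sites of DNA methylation. Methylation was not analysed here.
MRFAP1L1 (chr4:6709816-6710115, minus strand): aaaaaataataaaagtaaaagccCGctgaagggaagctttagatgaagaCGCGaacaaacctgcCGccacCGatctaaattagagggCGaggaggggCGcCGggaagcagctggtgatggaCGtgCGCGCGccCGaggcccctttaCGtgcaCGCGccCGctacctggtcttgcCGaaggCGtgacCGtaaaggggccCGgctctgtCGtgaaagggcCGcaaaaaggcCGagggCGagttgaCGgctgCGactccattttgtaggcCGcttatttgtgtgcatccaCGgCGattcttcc
GPM6B, window 1 (chrX:13938589-13938888, minus strand): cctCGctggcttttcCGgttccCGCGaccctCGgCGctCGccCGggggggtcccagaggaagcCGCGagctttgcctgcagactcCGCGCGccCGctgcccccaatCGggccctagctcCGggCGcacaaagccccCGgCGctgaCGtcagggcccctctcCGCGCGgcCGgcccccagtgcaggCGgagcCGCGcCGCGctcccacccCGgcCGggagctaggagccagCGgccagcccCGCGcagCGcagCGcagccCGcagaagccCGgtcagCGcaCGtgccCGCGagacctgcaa
GPM6B, window 2 (chrX:13817044-13817343, minus strand): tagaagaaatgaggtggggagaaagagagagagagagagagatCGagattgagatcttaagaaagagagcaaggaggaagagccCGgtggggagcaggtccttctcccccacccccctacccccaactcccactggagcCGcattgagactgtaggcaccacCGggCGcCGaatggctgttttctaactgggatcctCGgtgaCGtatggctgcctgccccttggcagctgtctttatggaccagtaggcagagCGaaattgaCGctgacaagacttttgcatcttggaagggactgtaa
NEBL, window 3 (chr10:21174042-21174341, minus strand): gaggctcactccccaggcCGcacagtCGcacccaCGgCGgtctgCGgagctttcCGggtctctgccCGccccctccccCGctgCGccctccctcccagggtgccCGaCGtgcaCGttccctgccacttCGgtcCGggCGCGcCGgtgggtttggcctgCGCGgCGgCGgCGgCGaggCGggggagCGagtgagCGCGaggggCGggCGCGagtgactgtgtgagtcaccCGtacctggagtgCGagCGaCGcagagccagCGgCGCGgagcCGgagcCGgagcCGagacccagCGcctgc
ITGBL1 (chr13:101452425-101452724, plus strand): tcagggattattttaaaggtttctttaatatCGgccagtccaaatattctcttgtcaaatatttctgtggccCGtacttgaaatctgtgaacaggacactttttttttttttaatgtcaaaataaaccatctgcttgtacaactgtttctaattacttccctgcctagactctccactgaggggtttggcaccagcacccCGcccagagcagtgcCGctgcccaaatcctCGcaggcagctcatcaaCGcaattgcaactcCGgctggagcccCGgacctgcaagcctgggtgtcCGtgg

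The MRFAP1L1 window holds 30 CG dinucleotides, more than 77.6% of the 35116 RefSeq windows, whose median is 14. The first GPM6B window holds 42, more than 94.2% of windows, and the second holds 10. The NEBL window shown has the most of that gene's 5 windows, 41, and the others hold 7, 37, 13 and 1. The ITGBL1 window holds 9, more than 41.6% of windows. The windows of these genes thus run over most of the range in CG content. The windows were searched on both strands for 4 motifs. CAGGTG, an E2-box of the kind that ZEB and SNAI factors bind, occurs in 20.6% of all windows. TGANTCA, the AP-1 motif, occurs in 7.71%. GGGCGG, the GC box, occurs in 45.0%. TATAAA, the TATA box, occurs in 11.5%. None of the 4 is in the windows of MRFAP1L1 or GPM6B. ITGBL1 has 1 GC box. NEBL window 3, which overlaps window 2, has 1 AP-1 match and 2 GC boxes. NEBL windows 1, 2 and 4 hold 1 CAGGTG each, and window 2 also holds 2 GC boxes. A match is a string of letters and not a measured site.

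MRFAP1L1 is represented by its single probe set, 212199_at. Its deposited log2 level in T4R was 6.56 with GM6001, 6.65 with the MMP and ADAM inhibitor, 6.80 with TNF protease inhibitor-2, 6.73 with PD98059, 6.77 with LY294002, 6.79 with dominant-negative Rap1, 6.81 with Tyrphostin AG 1478, 6.83 with mAb225 and 6.82 with AIIB2. It was 6.64, 6.78 and 6.75 in T4 and 10.46, 10.76 and 10.13 in S1. The T4R and T4 samples overlapped, GM6001 being the lowest of all 12, and every S1 sample stood at least 3.30 log2 units above them. The mean was 6.75 ± 0.09 in T4R (SD, n = 9), 6.73 ± 0.08 in T4 (n = 3) and 10.45 ± 0.31 in S1 (n = 3). T4 was lower than S1 by a log2 difference of -3.73 (SE 0.13), or 13.2-fold, which is the difference that chose the gene. T4R minus T4 was 0.036 (SE 0.12, 95% interval -0.23 to 0.30, limma adjusted p = 0.885), an interval between values at the low end of the arrays, which does not bound a change in the transcript. T4R minus S1 was -3.69 (SE 0.11), 12.9-fold lower.

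GPM6B is represented by 209170_s_at, which is assigned to the gene by the annotation of 1 of the 2 array types. Its log2 level in T4R was 6.70 with GM6001, 6.64 with the MMP and ADAM inhibitor, 6.84 with TNF protease inhibitor-2, 6.73 with PD98059, 6.83 with LY294002, 6.80 with dominant-negative Rap1, 6.74 with Tyrphostin AG 1478, 6.73 with mAb225 and 6.66 with AIIB2. It was 6.76, 6.82 and 6.64 in T4 and 9.71, 9.86 and 9.90 in S1. T4R and T4 again overlapped, and the lowest S1 sample was 2.87 log2 units above the highest of them. T4 was 8.40-fold lower than S1 (log2 difference -3.07, SE 0.08). T4R minus T4 was -0.030 (SE 0.08, 95% interval -0.19 to 0.13, limma adjusted p = 0.847), with the same limit at the low end, and T4R minus S1 was -3.10 (SE 0.07). Mean levels were 6.74 ± 0.07 in T4R (SD, n = 9), 6.74 ± 0.09 in T4 and 9.82 ± 0.10 in S1 (n = 3 each).

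Both genes lay near the low end in every sample of the malignant line. The 5th percentile of an array was 6.64 to 6.67 and its lower quartile 6.87 to 6.91. The MRFAP1L1 probe set stood above 1.90% to 19.3% of the probe sets of its own array in T4R and 4.83% to 14.1% in T4, against 92.1% to 94.7% in S1. For GPM6B the range was 4.21% to 19.6% in T4R and 4.44% to 17.1% in T4, against 88.3% to 90.6% in S1. All 9 T4R and all 3 T4 samples were below their own lower quartile for both genes. The value tables carry no detection calls, so whether any transcript was present there is unknown, and a fall below this level, or a small rise, could be missed, so that the fold differences from S1 may be understated. Both genes entered the test through S1, since the filter on low values asks for a mean over all samples above 6.97 and their T4R and T4 means are below it.

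The other 3 GPM6B probe sets gave the same picture on a smaller scale. T4 minus S1 was -2.61 at 209167_at, -1.62 at 209168_at and -1.23 at 209169_at, and T4R minus T4 was -0.05 (SE 0.13), -0.01 (SE 0.07) and -0.11 (SE 0.10), none called over the 19707 probe sets (limma adjusted p = 0.885, 0.951 and 0.627). In T4R 209169_at was below the lower quartile in 9 of 9 samples, 209167_at in 8 and 209168_at in 6. The 209167_at value with Tyrphostin AG 1478, above 33.3% of its array, was the highest place that any GPM6B probe set took in T4R.

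NEBL is represented by 203962_s_at and kept a readable level in T4. In T4R its log2 level was 8.63 with GM6001, 8.68 with the MMP and ADAM inhibitor, 8.94 with TNF protease inhibitor-2, 8.68 with PD98059, 8.42 with LY294002, 7.93 with dominant-negative Rap1, 9.04 with Tyrphostin AG 1478, 8.93 with mAb225 and 9.26 with AIIB2. It was 8.19, 8.55 and 7.12 in T4 and 11.86, 12.03 and 10.61 in S1. In 7 of 9 T4R samples the level was above the highest T4 sample, and dominant-negative Rap1 and LY294002 fell within the T4 range. Sample 3 was the lowest of its group in both T4 and S1. Group means were 8.72 ± 0.39 in T4R (SD, n = 9), 7.95 ± 0.75 in T4 and 11.50 ± 0.77 in S1 (n = 3 each). T4 was 12.2-fold lower than S1 (log2 difference -3.61, SE 0.43). T4R minus T4 was 0.89 (SE 0.40, 95% interval 0.035 to 1.73), 1.85-fold, and did not pass after adjustment (limma adjusted p = 0.158). It was 0.47 without T4 sample 3 (adjusted p = 0.531) and 0.63 in the first table alone (adjusted p = 0.243). It was 0.40 with array weights (adjusted p = 0.108), and 0.21 when sample 3 of both T4 and S1 and dominant-negative Rap1 were left out (adjusted p = 0.415). T4R minus S1 was -2.72 (SE 0.35), 6.59-fold lower. Without S1 sample 3 it was -3.37, 10.3-fold lower, a value that rests on the first table's agents alone.

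The probe set that represents NEBL lay above the lower quartile of the array in every sample, which does not hold for all of the gene's probe sets. The probe set stood above 62.7% to 84.6% of its array in T4R and 41.3% to 74.2% in T4, against 94.8% to 98.1% in S1. A second bright probe set, 203961_at, gave T4 minus S1 of -3.88 and T4R minus T4 of 1.04 (SE 0.52), and its value in T4 sample 3, 6.43, was above only 0.234% of that array. At 203961_at dominant-negative Rap1 was again the lowest of the T4R samples, at 7.41. The other probe sets showed smaller differences between T4 and S1, -2.29 at 207279_s_at, -0.35 at 216882_s_at and -0.31 at 217585_at, and 217585_at was below the lower quartile of the array in all T4R and T4 samples. None of the 5 NEBL probe sets was called in T4R against T4 over the 19707 probe sets. Which of the long and the LIM form each probe set reads is not given here.

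ITGBL1 is represented by 214927_at. In T4R its log2 level was 8.06 with GM6001, 8.14 with the MMP and ADAM inhibitor, 8.005 with TNF protease inhibitor-2, 8.29 with PD98059, 8.10 with LY294002, 8.88 with dominant-negative Rap1, 8.37 with Tyrphostin AG 1478, 8.49 with mAb225 and 8.25 with AIIB2. It was 7.53, 7.63 and 6.93 in T4 and 11.10, 11.64 and 10.74 in S1. All 9 T4R samples were above all T4 samples and below all S1 samples, so that the 3 groups did not overlap. The means were 8.29 ± 0.27 in T4R (SD, n = 9), 7.36 ± 0.38 in T4 and 11.16 ± 0.45 in S1 (n = 3 each). T4 was 13.8-fold lower than S1 (log2 difference -3.78, SE 0.26). ITGBL1 rose in T4R against T4 by 0.89 (SE 0.24, 95% interval 0.37 to 1.42, limma adjusted p = 0.0256), 1.85-fold. This contrast uses the T4 samples by which the gene was chosen, so it is not independent of the choice. Without T4 sample 3 the rise was 0.68 and the call was lost (adjusted p = 0.113), and in the first table alone it was 0.74 (adjusted p = 0.0492). When sample 3 of both T4 and S1 and dominant-negative Rap1 were left out it was 0.52 (adjusted p = 0.0348), and with array weights it was 0.58 (adjusted p = 0.00415). T4R minus S1 was -2.89 (SE 0.22), 7.42-fold lower.

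ITGBL1 stood above 64.1% to 78.9% of its array in T4R and 28.9% to 56.7% in T4, against 95.3% to 97.4% in S1. At its other probe set, 205422_s_at, T4 minus S1 was -2.72 and T4R minus T4 was 0.77 (SE 0.23, adjusted p = 0.0547 over the 19707 probe sets, where 214927_at had 0.0386). The T4R samples ran there between 7.40 and 8.46 and overlapped the T4 samples, which ran between 6.78 and 7.58. The lowest T4 value there, that of sample 3, was below the lower quartile of its array. It is the sample without which the call at 214927_at was lost. The agent with the highest value differed between the probe sets, being dominant-negative Rap1 at 214927_at and AIIB2 at 205422_s_at.

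SELENBP1 has the single probe set 214433_s_at. In T4R its log2 level was 7.27 with GM6001, 7.27 with the MMP and ADAM inhibitor, 7.85 with TNF protease inhibitor-2, 7.54 with PD98059, 7.10 with LY294002, 7.33 with dominant-negative Rap1, 7.43 with Tyrphostin AG 1478, 7.46 with mAb225 and 7.41 with AIIB2. It was 7.04, 7.02 and 7.08 in T4 and 10.85, 10.85 and 8.72 in S1. The T4 samples lay close together and every T4R sample was above them, LY294002 by the least. S1 sample 3 was more than 2 log2 units below the other S1 samples and still above all T4R samples. The means were 7.41 ± 0.21 in T4R (SD, n = 9), 7.05 ± 0.03 in T4 and 10.14 ± 1.23 in S1 (n = 3 each). T4 was 9.19-fold lower than S1 (log2 difference -3.20, SE 0.41). T4R minus T4 was 0.57 (SE 0.38, 95% interval -0.24 to 1.38, limma adjusted p = 0.353), although the groups did not overlap. S1 sample 3 enters the fitted difference between the tables (second minus first), which was -0.32 for this gene. Without that sample the second table holds T4R samples only, so the differences rest on the first table's agents. T4R minus T4 was then 0.17 (adjusted p = 0.375), the same estimate as in the first table alone (adjusted p = 0.169). T4R minus S1 was -2.63 (SE 0.34), 6.19-fold lower. Without S1 sample 3 it was -3.64, 12.5-fold lower, again from the first table's agents. SELENBP1 stood above 40.5% to 60.7% of its array in T4R and 34.9% to 39.3% in T4, against 77.1% to 95.1% in S1.

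**Figure D2:**
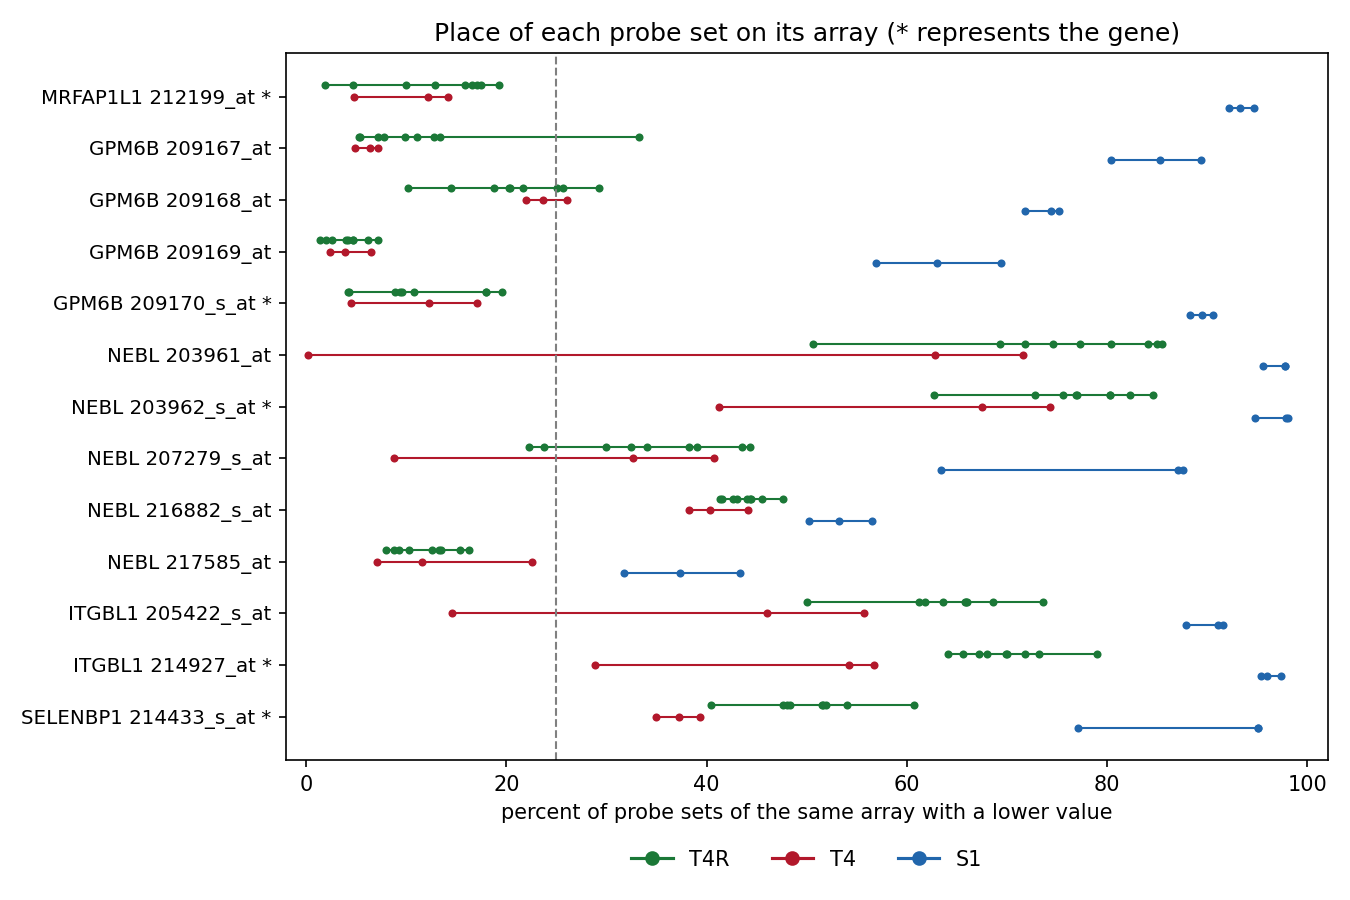
Percentage of probe sets on the same array with a lower value, for each of the 13 probe sets, 1 point per sample, T4R above T4 and T4 above S1; the asterisk marks the probe set that represents the gene and the dashed line the lower quartile. MRFAP1L1 and GPM6B 209170_s_at lie left of the line in all T4R and T4 samples, whereas NEBL 203962_s_at, ITGBL1 214927_at and SELENBP1 lie right of it.

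Counted over the 5 genes, 1 of 5, ITGBL1, was called higher in T4R than in T4, where 6.46% of all genes tested were called higher and 8.44% lower. In 2 of 5, ITGBL1 and SELENBP1, every T4R sample was above every T4 sample, as in 6.76% of all genes. All 5 were called lower in T4R than in S1 (11.4% of all genes), a contrast that shares its S1 samples with the choice, and all T4R and T4 samples were below all S1 samples in 5 of 5, as in 5.32% of all genes. Each of these counts uses T4 or S1 samples by which the genes were chosen. None is independent of the choice, and the shares of all genes are given as background only. All 5 were lower in T4 than in S1 by the rule, against 12.3% of all genes called lower (1119 genes, or 744 with the replicate number as a block and no table). The median difference of the 5 genes was -3.61 for T4 minus S1, 0.57 for T4R minus T4 and -2.89 for T4R minus S1, and that of all genes tested lay within 0.01 of 0 in each.

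How far each agent brought a gene back was expressed as recovery, the difference between the agent's log2 value and the T4 mean as a percentage of the difference between the S1 and T4 means, after removal of the fitted table effect. Each value is 1 sample and carries no test. On this scale the 3 T4 samples themselves spread from -2.33% to 1.58% for MRFAP1L1, -3.25% to 2.61% for GPM6B, -23.2% to 16.6% for NEBL, -11.4% to 6.96% for ITGBL1 and -0.769% to 0.970% for SELENBP1. Recovery of MRFAP1L1 ran from -4.48% with GM6001 to 3.10% with mAb225, and that of GPM6B from -4.21% with AIIB2 to 2.90% with LY294002. For GPM6B 6 of 9 agents lay within the T4 samples' range, 1 above and 2 below, and for MRFAP1L1 3 lay within, 5 above and 1 below. None of these values left the low end described above. With the mean of all 4 GPM6B probe sets in place of the one that represents it, the lowest recovery was -5.93% with AIIB2 and the highest 2.18% with LY294002.

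NEBL recovered most with AIIB2 (40.9%), Tyrphostin AG 1478 (34.8%), TNF protease inhibitor-2 (32.1%) and mAb225 (31.9%). PD98059 (24.9%), the MMP and ADAM inhibitor (20.3%) and GM6001 (18.9%) came next, and LY294002 (13.0%) and dominant-negative Rap1 (4.20%) were within the range of the T4 samples. ITGBL1 had another order. Dominant-negative Rap1 was highest (38.8%), followed by mAb225 (28.5%), Tyrphostin AG 1478 (25.2%), PD98059 (23.1%), AIIB2 (22.2%), the MMP and ADAM inhibitor (20.7%), LY294002 (19.5%), GM6001 (18.5%) and TNF protease inhibitor-2 (15.6%). All 9 exceeded the T4 samples.

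SELENBP1 recovered most with TNF protease inhibitor-2 (34.9%) and PD98059 (25.3%). With mAb225, Tyrphostin AG 1478, AIIB2 and dominant-negative Rap1 it stood at 22.8%, 21.97%, 21.2% and 18.7%. With the first table's agents it was lower, at 1.74% with LY294002, 6.92% with the MMP and ADAM inhibitor and 7.01% with GM6001. The order of SELENBP1 thus follows the table, and the orders of NEBL and ITGBL1 largely do. For NEBL the first table's agents stood at 13.0% to 20.3%. The second table's stood at 24.9% to 40.9%, apart from dominant-negative Rap1 (4.20%). For ITGBL1 they stood at 18.5% to 20.7% in the first and 22.2% to 38.8% in the second, apart from TNF protease inhibitor-2 (15.6%). For these genes the agents of the 2 tables cannot be told apart from the tables, beyond the fitted term that rests on S1 sample 3 and on the T4R samples. With deposited values and the S1 samples of the same table, the range of SELENBP1 was 1.46% to 5.89% in the first table and 16.7% to 47.9% in the second. The same calculation gave -0.620% to 49.0% for NEBL and 17.5% to 44.9% for ITGBL1, with dominant-negative Rap1 at the low end of NEBL and at the top of ITGBL1, as before. In the second table it uses S1 sample 3 alone, and the T4 mean comes wholly from the first table. That sample had 8.72 for SELENBP1, where S1 samples 1 and 2 had 10.85, and was the lowest S1 sample for NEBL and ITGBL1 too. A low S1 value makes these percentages larger, so they are no check within a table. No agent reached 50% for any of the 5 genes by either calculation at the probe set that represents the gene. Their other probe sets were not examined singly in this way.

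**Figure D3:**
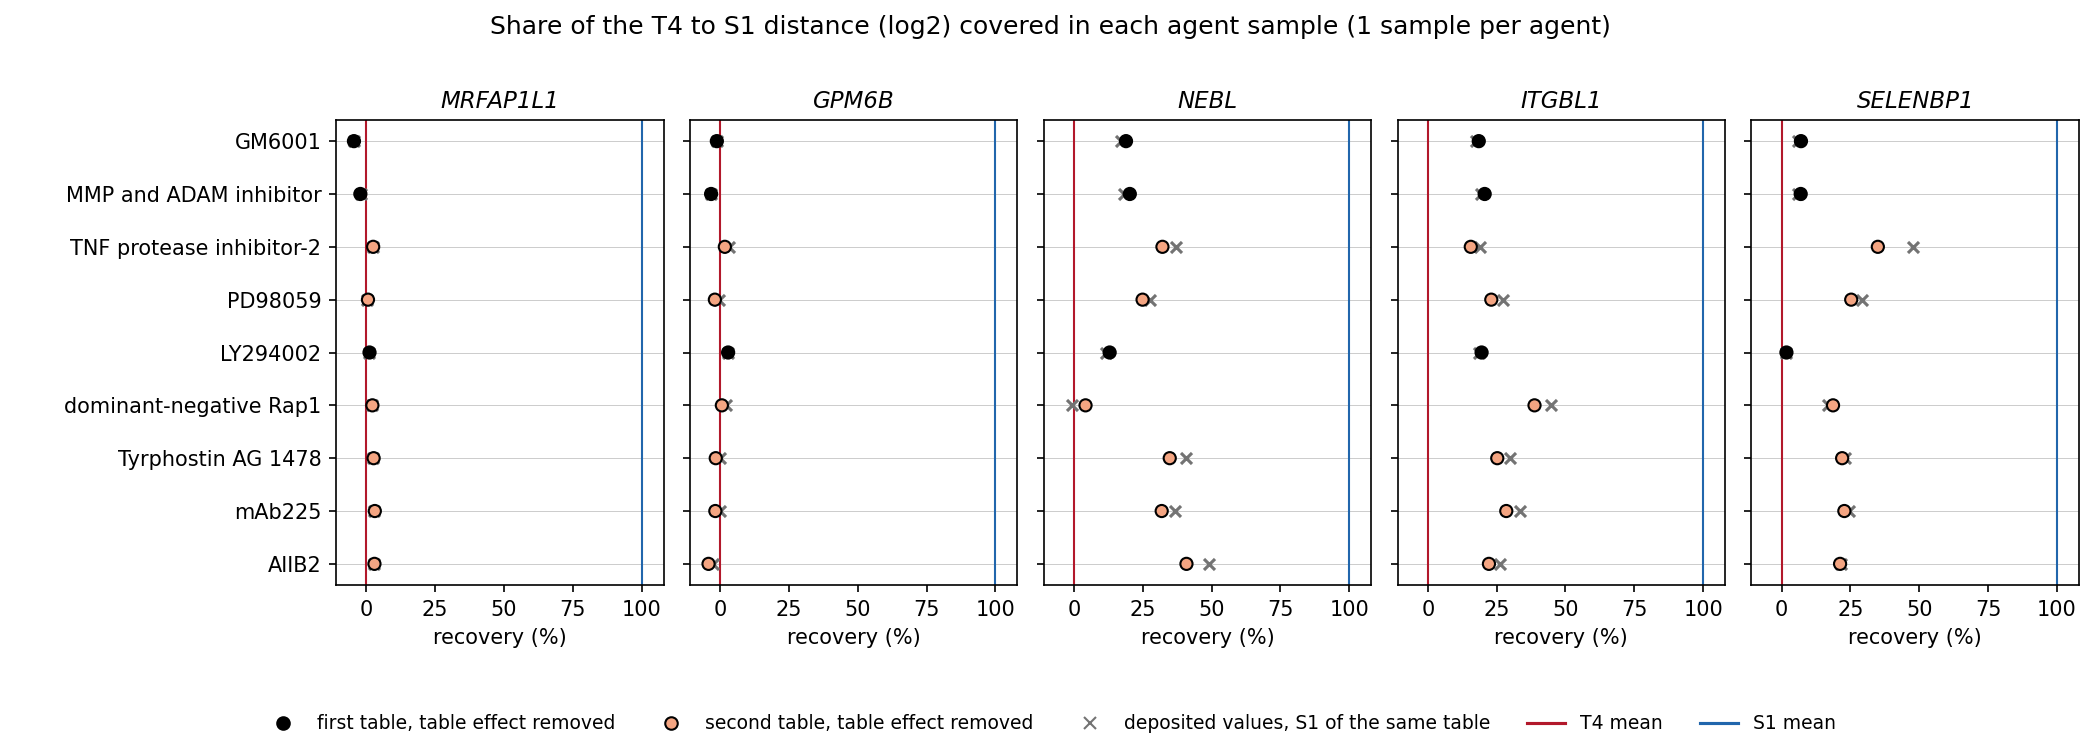
Recovery of each gene with each agent, in percent of the distance from the T4 mean (0) to the S1 mean (100), 1 sample per agent. Filled circles are first-table agents and open-rimmed circles second-table agents with the fitted table effect removed. Crosses are deposited values against S1 of the same table, which is S1 sample 3 alone in the second, and against the T4 mean of the first table. Circles of MRFAP1L1 and GPM6B stay between -4.48% and 3.10%, and the highest circles are NEBL with AIIB2 (40.9%) and ITGBL1 with dominant-negative Rap1 (38.8%).

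The agents were also compared with each other by the target they address, in 3 classes of 3 samples. TNF protease inhibitor-2, GM6001 and the MMP and ADAM inhibitor form the protease class, dominant-negative Rap1, LY294002 and PD98059 the signalling class, and AIIB2, mAb225 and Tyrphostin AG 1478 the receptor class. The receptor class lies wholly in the second table, and the other classes are split over both tables. Class and table are therefore partly confounded, and only the fitted table term separates them. No label puts dominant-negative Rap1 in its class, which rests on what is known of the study. The fit takes its table effect from the S1 samples too, and its spread from the T4 and S1 samples too, so the comparison is not independent of how the genes were chosen. For SELENBP1 the protease class minus the receptor class was -0.24, and 0.33 without S1 sample 3. By limma's moderated F-test 0 of 5 genes were called, with adjusted p = 0.914 for MRFAP1L1, 0.934 for GPM6B, 0.903 for NEBL, 0.911 for ITGBL1 and 0.980 for SELENBP1. The background was 0% of the 9111 genes called, with 496 (5.44%) at an unadjusted p under 0.05. With array weights 18 genes were called, none of the 5 among them. For NEBL the receptor class minus the signalling class was 0.86 (SE 0.39, 95% interval 0.0048 to 1.71, adjusted p = 0.891). For ITGBL1 the protease class minus the signalling class was -0.38 (SE 0.26, interval -0.95 to 0.19, adjusted p = 0.862), and for SELENBP1 the receptor class minus the signalling class was 0.25 (SE 0.44, interval -0.71 to 1.202, adjusted p = 0.953). These intervals leave room for differences of about 1 log2 unit or more in NEBL and SELENBP1, so the classes are not shown to act alike.

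Across samples the 5 genes tracked each other, since each separates S1 from the rest. Pearson's r between pairs ran from 0.890 (GPM6B with NEBL) to 0.995 (MRFAP1L1 with GPM6B) over 15 samples, with the table effect removed. Among the 9 T4R samples alone, r over the 10 pairs ran from -0.52 (GPM6B with NEBL) to 0.62 (MRFAP1L1 with SELENBP1), and it was 0.13 for MRFAP1L1 with GPM6B. These are descriptions over samples that share arrays and the table term.

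For MRFAP1L1 the genes with the most similar pattern over the 15 samples, by the same correlation, were S100A14 (r = 0.999), GPM6B (0.995) and MLPH (0.991). For GPM6B they were MRFAP1L1, S100A14 (0.993) and ADGRG2 (0.988). MRFAP1L1, GPM6B, NEBL, ITGBL1 and SELENBP1 were chosen by the gap between T4 and S1, which largely sets each r given here. Such an r does not show a shared pattern within T4R. Among the T4R samples alone, r was 0.13 for MRFAP1L1 with GPM6B, and it was not examined for the other pairs listed here. S100A14, an S100 calcium-binding protein, averaged 6.84 in T4R, 6.86 in T4 and 10.06 in S1, at a recovery of 1.39%. NEBL was closest to MKKS (0.989), APEX1 (0.971) and HOXA2 (0.969). Of these APEX1, a DNA repair endonuclease, had a mean of 11.39 in T4R, 11.16 in T4 and 12.29 in S1. ITGBL1 was closest to GTPBP6 (0.986), WDR70 (0.975) and PNPLA4 (0.973). SELENBP1 was closest to IGFBP3 (0.983), HOXA2 (0.982) and CACNA2D3 (0.981). IGFBP3, the main carrier of insulin-like growth factors in serum, averaged 6.78 in T4R, 6.80 in T4 and 10.63 in S1.

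The 5 genes are among the 10 with the largest fall in T4, at ranks 3 (ITGBL1), 4 (MRFAP1L1), 5 (NEBL), 9 (SELENBP1) and 10 (GPM6B). The other genes of the 10 were brought back to very different degrees. PPL, which encodes periplakin of the cornified envelope, had 11.23 in T4R, 7.92 in T4 and 11.24 in S1, a full return, and TMT1A, a methyltransferase gene, recovered by 79.6%. IGFBP3 (9.04%), the keratin gene KRT10 (9.90%) and S100A14 (1.39%) stayed low. KRT10 had a mean of 9.98 in T4R, 9.75 in T4 and 13.14 in S1, far above the low end. In all, 49 genes were called lower in T4 by 2 log2 units or more. Among the 44 besides the 5 genes, recovery had a median of 35.3% (quartiles 8.34% and 66.8%). Of these 44, 18 were called higher in T4R than in T4, where 6.46% of all genes tested were called higher. The 44 were taken for low T4 values, which are also the baseline of both measures, so neither is independent of that choice. MRFAP1L1 and GPM6B each had 6 of the 44 below them in recovery, SELENBP1 and ITGBL1 18 each and NEBL 19, so that the last 3 lay between the quartiles. Without S1 sample 3 the median of the 44 was 29.3% and their lower quartile 0.955%, and SELENBP1, at 4.39%, had 14 of the 44 below it. Those values rest on the first table's agents alone.

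**Figure D4:**
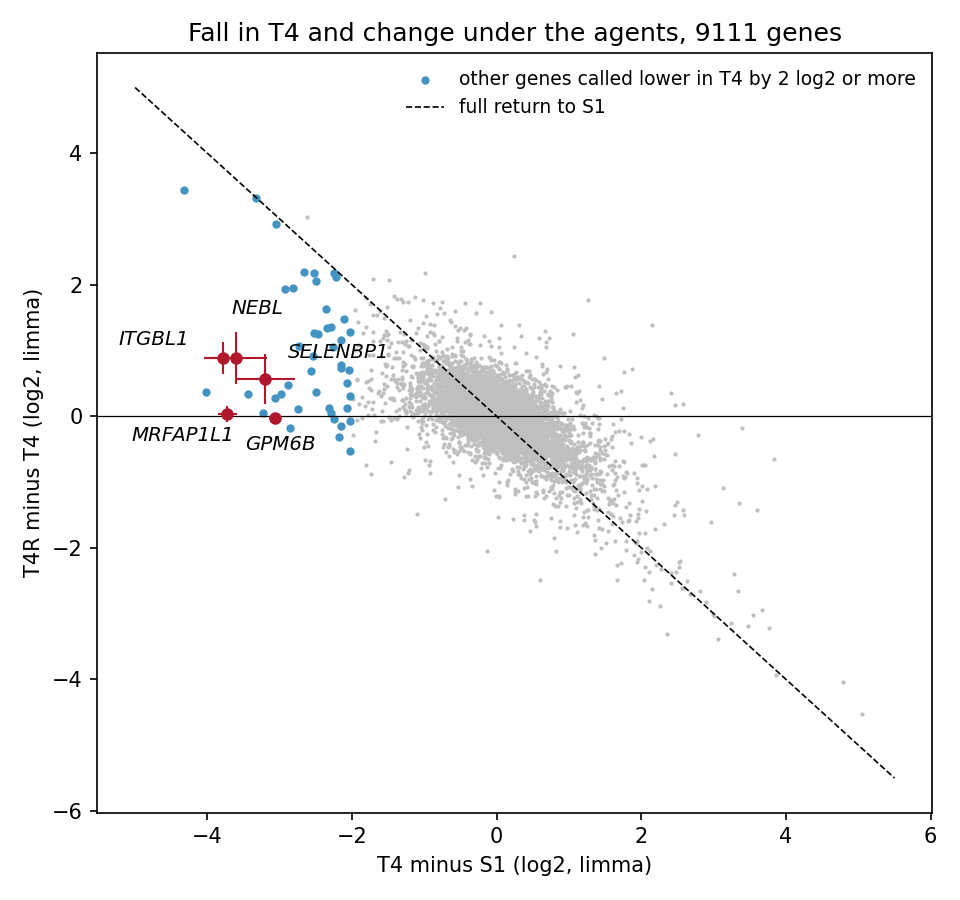
T4R minus T4 against T4 minus S1 (both log2 differences from limma) for 9111 genes; red points are the 5 genes with bars of 1 SE, blue points are the other genes called lower in T4 by 2 log2 units or more, and the dashed line marks a full return to S1. MRFAP1L1 (0.036) and GPM6B (-0.030) lie on the zero line and NEBL, ITGBL1 and SELENBP1 between 0.57 and 0.89, all far below the dashed line.

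Genes next to the 5 on their chromosomes were compared to see whether the fall extends beyond them. The 3 nearest tested genes on each side, in RefSeq's gene order, gave 30 neighbours, of which 10 were called lower and 4 higher in T4 than in S1, against 12.3% and 14.6% of all genes. Near GPM6B 4 of 6 were lower, namely OFD1, a centrosome and cilium protein (-1.12, SE 0.20, limma adjusted p = 0.00115), RAB9A (-0.78), GEMIN8 (-0.74) and TRAPPC2 (-0.67). In T4R against T4 1 of the 30 neighbours was called higher and 2 lower, where 6.46% of all genes were called higher and 8.44% lower. GEMIN8, of the complex that assembles spliceosomal particles, rose by 0.52 (adjusted p = 0.0227). TUFT1, near SELENBP1, fell (-0.96, adjusted p = 0.00846), as did GRPEL1, near MRFAP1L1 (-0.49, adjusted p = 0.0358). Near MRFAP1L1 KIAA0232 (-0.48) and MAN2B2 (-0.71) were lower, and S100P missed the threshold (-1.38, SE 0.49, adjusted p = 0.0505). Near NEBL COMMD3 (-0.74) and MLLT10 (-0.62) were lower. ITGBL1 had PCCA lower (-0.96) and TEX30 (1.40), POGLUT2 (1.05) and TPP2 (0.56) higher, and SELENBP1 had PSMD4 lower (-0.50) and TUFT1 higher (0.75). No neighbour moved by more than 1.40 log2 units between T4 and S1, and copy number was not analysed here.

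Among the families and partners of the 5 genes, taken as 5 lists, the genes called lower in T4 than in S1 were BRD8 and MEAF6, both of the MRFAP1L1 list. Over all genes tested, 14.6% were called higher and 12.3% lower in T4 against S1, and 6.46% were called higher and 8.44% lower in T4R against T4. Differences here are fitted with the table as a block, whereas group means are of the deposited values, so the gap between means can depart from the fitted difference. Of 6 tested integrin β subunits, relatives of ITGBL1, 2 were higher and none lower in T4. These were ITGB6 (1.82, SE 0.22, limma adjusted p = 6.22e-05) and ITGB5 (1.99, SE 0.41, adjusted p = 0.003), both partners of the αv subunit. Both were lower in T4R. The fitted T4R minus T4 difference of ITGB6 was -1.59 (adjusted p = 0.000237), and its means were 7.11 in T4R, 8.96 in T4 and 7.01 in S1. That of ITGB5 was -2.06 (adjusted p = 0.00328), with means of 8.22 in T4R, 10.18 in T4 and 8.23 in S1. ITGBL1 moved the other way from these subunits in both contrasts. The median of the list was 0.57 for T4 minus S1 and -0.48 for T4R minus T4, with all genes within 0.01 of 0.

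Of 13 tested actin filament genes around NEBL, 5 were higher and none lower in T4, where 14.6% and 12.3% of all genes were called, and 5 were lower and none higher in T4R than in T4, where 8.44% and 6.46% were called (list medians 0.36 and -0.36). TPM4, a tropomyosin, was higher in T4 by 1.95 (SE 0.25, limma adjusted p = 0.000107) and lower in T4R than in T4 (-1.55, adjusted p = 0.000798), with means of 8.57 in T4R, 9.96 in T4 and 8.09 in S1. ACTN1, the cross-linker α-actinin, was higher in T4 by 1.61 and fell by 1.52 in T4R. The focal adhesion genes ZYX (0.58, adjusted p = 0.0035) and VASP (0.36, adjusted p = 0.0297) were higher in T4, and VASP fell by 0.58 in T4R. LASP1, the other nebulin family gene tested, did not pass in T4 against S1 (0.46, adjusted p = 0.0771) and fell in T4R against T4 (-0.84, adjusted p = 0.00488). NEB and NRAP were too dim to be tested.

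Of 6 tested membrane proteins of the proteolipid and PMP22 types around GPM6B, 1 was higher in T4, EMP1 (1.504, SE 0.23, limma adjusted p = 0.00039). In T4R against T4, 2 rose and 1 fell. GPM6A, the closest relative of GPM6B, rose by 0.55 (SE 0.15, adjusted p = 0.0287), with means of 7.78 in T4R, 7.17 in T4 and 6.99 in S1. PLLP, plasmolipin, rose by 1.73 (adjusted p = 0.00358), and EMP3 fell by 2.04 (adjusted p = 0.0146). The list's medians were -0.05 for T4 minus S1 and -0.15 for T4R minus T4. Of 15 tested MRG15 and TIP60 complex genes around MRFAP1L1, MRGBP (0.58) and ACTL6A (0.75) were higher and BRD8 (-0.63) and MEAF6 (-0.94) lower in T4, and MRGBP fell by 0.74 in T4R, with list medians of 0.04 and 0.06. Of 16 tested genes of selenium handling around SELENBP1, 2 were higher in T4, the selenophosphate synthetase genes SEPHS1 (0.68) and SEPHS2 (0.36), and 4 rose in T4R, none falling, where 6.46% of all genes were called higher and 8.44% lower. The list medians were -0.02 and 0.22. SELENOP, the selenium carrier of plasma, rose in T4R by a fitted 2.19 (SE 0.43, adjusted p = 0.00444), with means of 8.75 in T4R, 6.98 in T4 and 7.76 in S1. MSRB1 rose by 0.65 (adjusted p = 0.00235).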

How the data were processed

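RNA of 15 samples was hybridised to Affymetrix U133A-type arrays. The values are log2 expression as deposited by the authors in 2 tables of 22215 probe sets, ranging from 6.21 to 14.5. How they were summarised, background-corrected and normalized, and whether jointly, is not given in the sources used here. Symbols came from the platform annotations, updated through the Entrez number for 19689 of 19707 single-gene probe sets. The probe set with the highest mean stood for its gene, and the dimmest 25% of 12149 genes were dropped, which left 9111.

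Differences were tested with limma 3.58.1 in R 4.3.3 (lmFit and eBayes, 2-sided, Benjamini-Hochberg over all genes tested). Groups were T4R, T4 and S1, with the table as a fixed block, and a second fit split T4R into 3 classes. No p is given for T4 against S1 in the 5 genes, which were chosen by that contrast. On simulated data with 50 genes changed at each size, the T4R against T4 test recovered 92% at a log2 change of 1 and 98% at 2. It recovered 90% at -1 and 100% at -2, and it called 11 unchanged genes of 9111. These shares do not hold for genes with a wide spread such as NEBL (SE 0.40) and SELENBP1 (SE 0.38), where a change of 1 could be missed. Members and lists were chosen with earlier results of these data known. Genes named besides the 5 are the 10 with the largest fall, the 3 with the most similar pattern and the 3 nearest on each side for each of the 5, and from each list up to 3 per direction with the smallest p. LASP1, VASP in T4 against S1, NEB and NRAP were named after their values were seen.

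Whether samples of a group are separate cultures is not in the labels, and the p-values rest on a spread between samples that may be technical and, in T4R, also holds that between agents. The number of arrays limits the precision. Same-numbered T4 and S1 samples deviated together (correlations of 0.28, 0.31 and 0.39 over 9111 genes for numbers 1, 2 and 3), but numbers 1 and 2 were not told apart (0.29 and 0.31 when crossed), and S1 sample 3 lies in the other table. Alternatives were the table block, first table alone, quantile normalization, the rule for probe sets, filters, array weights, the replicate block and leaving out samples. Promoter windows are RefSeq's.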

Additional observations from a re-analysis of the deposited data

How the results depend on the processing

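Over 26 alternatives the median T4 minus S1 difference of the 5 genes ran from -3.88 to -3.20, leaving out 1 sample at a time from -3.88 to -3.22. With the replicate number as a block it was -3.55 without and -3.79 with the table. No p is given for the 5 genes in that contrast. The mean of all probe sets of a gene gave smaller falls for GPM6B (-2.13), NEBL (-2.09) and ITGBL1 (-3.25), by construction, since it includes their dimmer probe sets. The count of genes called higher in T4R than in T4 was 1, and 0 to 1 over the samples left out, being 0 without T4 replicate 3. The adjusted p of ITGBL1 ran from 0.00415 to 0.113 over 24 alternatives, and NEBL (0.0860 to 0.531) and SELENBP1 (0.169 to 0.494) were called in none. The count called lower in T4R than in S1 was 5, and 5 to 5 over the samples left out; it was 3 with the dimmer 50% of genes left out, where MRFAP1L1 and GPM6B were not tested. In the second table alone, a fit added after seeing the data, the S1 arm is S1 sample 3 by itself, assumed to vary like the T4R samples. There T4R minus S1 was -1.82 for NEBL and -1.22 for SELENBP1, against -3.37 and -3.64 in the first table, values that rest on that sample and add nothing to the count. The F-test between classes called 0 to 0 of the 5 genes over the samples left out, and 0 under every other alternative run; it was not run in the first table alone, which lacks a class. Array weights raised the counts over all genes to 2246 higher and 1934 lower in T4 against S1 (1333 and 1119 without), 1482 and 1678 in T4R against T4 (589 and 769), and 2007 and 1847 in T4R against S1 (1078 and 1038). Genes called higher in T4R than in T4 numbered 373 without T4 sample 3 and 390 without T4 sample 1. The second table alone called 544 genes higher and 621 lower in T4R than in S1. The F-test called 18 genes of all tested with array weights, 10 without PD98059, 1 without TNF protease inhibitor-2 and 2 when dominant-negative Rap1 and sample 3 of both T4 and S1 were left out, a choice made after seeing the data. The replicate block gave 2000 higher and 1661 lower genes in T4 against S1 with the table and 1040 and 744 without. T4R samples carry no replicate numbers, so the block was run for T4 against S1 and for none of the contrasts whose calls are given for the 5 genes. Without detection calls the low end limits MRFAP1L1 and GPM6B most.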

Other observations

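The recovery of genes that fell by 2 log2 units or more in T4 is given by where they ended up on the arrays, a split chosen after the values were seen. Of the 44 such genes besides the 5, F2R, S100A14, ADH1B, MLPH, IGFBP3 and BEX1 had a T4 mean below 6.87, the lowest lower quartile of the arrays, like MRFAP1L1 and GPM6B. Their recovery ran from -3.20% for the thrombin receptor gene F2R to 16.7% for BEX1, with a median of 5.75%, and 0 of 6 were called higher in T4R than in T4. These recoveries hold the fitted table term, and deposited means depart from them in either direction. Means in T4R and T4 were 6.89 and 6.85 for BEX1 and 6.78 and 6.80 for IGFBP3, which hardly differ. They were 7.15 and 6.87 for ADH1B and 7.04 and 6.84 for MLPH, at recoveries of 5.26% and 6.25%. Of the 38 genes with a higher T4 mean, 18 were called higher, and their recovery ran from -26.0% for SRPX to 100.02% for PPL, with a median of 42.8%, so that the ranges of both sets overlap. NEBL, ITGBL1 and SELENBP1, with T4 means of 7.95, 7.36 and 7.05, fall in the second set. All 44 genes were taken for low T4 values, which are also the baseline of these rises and recoveries. Of all genes tested, 6.46% were called higher in T4R than in T4. Whether the sets differ was not tested.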
